A study of Mus musculus with 2 samples.

Results

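The 10 genes described here encode surface proteins by which mouse hematopoietic stem cells (HSCs) are sorted or recognized: Kit, Ly6a, Cd48, Slamf1, Cd244, Cd34, Procr, Thy1, Itga2b and Cd27. They were taken by symbol from the 23284 genes listed in each library, and all 10 were found. RNA-seq was performed on LSK CD48- cells of E14.5 fetal liver (FL), the lineage marker-negative, Sca-1-positive and c-Kit-high fraction from which CD48-positive cells are removed. There was 1 library from wild-type (WT) fetuses and 1 from ESAM-null fetuses. The latter carry a conventional homozygous knockout of Esam, which applies to every cell, the endothelium included. How many fetuses and cells went into a library was not given in the sources used here. According to the sample labels, cells went into methylcellulose for incubation after the sort, whereas the paper describes RNA-seq of FL LSK CD48- cells.

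The markers differ in function. c-Kit is the receptor of stem cell factor, and Sca-1, encoded by Ly6a, is a small protein held in the membrane by a glycosylphosphatidylinositol (GPI) anchor. CD48, CD150 (Slamf1) and CD244 belong to the signaling lymphocyte activation molecule (SLAM) family, whose members bind each other on neighboring blood cells. Long-term HSCs are known to carry CD150 without CD48 or CD244, and the gain of CD48 accompanies the step to multipotent progenitors. EPCR (Procr), CD34, Thy-1, CD41 (Itga2b) and CD27 divide the LSK fraction further, and CD34 and CD41 also mark stem cells as they arise in the embryo.

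Values are FPKM, fragments scaled to transcript length and library size, so that levels of different genes can be set side by side. Read numbers were estimated from the FPKM, the transcript length and the step that 1 read makes in low values, and 95% counting intervals were computed from them. The steps corresponded to scales of 9382013 reads in WT and 10214358 reads in ESAM-null. Above 0 were 14305 genes in WT and 13039 in ESAM-null, so more genes were listed at 0 in ESAM-null despite its larger scale. With 1 library for each genotype no difference has a replicate check, and no test between genotypes was possible. Esam, the knocked-out gene (chromosome 9, 37528078 to 37538319 in mm10), was 118 FPKM in WT against 12.1 FPKM in ESAM-null. It was 9.69-fold lower with a counting interval of 8.40 to 11.3. The ESAM-null value rests on about 206 reads, whose source was not tested. In sorted bulk cells, fewer cells that express a gene and less RNA per cell cannot be told apart.

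Reads of 75 bases can be assigned to a marker only where its sequence differs from that of other genes. Windows of 75 bases were therefore drawn along each marker's longest RefSeq-linked GENCODE transcript and compared with the transcripts of all other genes, on both strands. For 8 of the 10 markers no window was shared. Ly6a shared 21 of 881 windows (2.38%), because its family arose by duplication on chromosome 15. The stretches shown next hold the longest run that the coding sequence of Ly6a has in common with another Ly6 gene, Ly6i, whose coding sequence matched at 347 of 402 bases (86.3%). Capitals mark the identical run of 80 bases, and both lines give coding bases 5 to 174, from RefSeq-linked GENCODE transcripts on GRCm38 (Ly6a, chromosome 15, 74994877 to 74998031, minus strand; Ly6i, 74979534 to 74983430, minus strand).
Ly6a: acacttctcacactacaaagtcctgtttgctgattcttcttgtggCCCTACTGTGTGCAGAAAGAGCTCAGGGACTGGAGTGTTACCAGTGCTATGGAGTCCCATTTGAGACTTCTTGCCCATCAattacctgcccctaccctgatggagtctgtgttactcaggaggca
Ly6i: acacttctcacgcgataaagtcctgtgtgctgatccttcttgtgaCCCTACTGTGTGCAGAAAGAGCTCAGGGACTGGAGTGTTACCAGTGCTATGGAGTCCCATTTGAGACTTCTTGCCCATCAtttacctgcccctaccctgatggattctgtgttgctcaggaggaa
Outside the capitals, 10 bases differ between the pair. Over its whole transcript, Ly6a had a longer run of 89 bases in common with Ly6c1. Both relatives were low: Ly6i had 0.158 FPKM in WT but 0 in ESAM-null, and Ly6c1 was 1.49 and 4.26 FPKM, against 99.8 and 96.7 FPKM of Ly6a. Cd34 shared 77 of 2480 windows (3.10%) with Gm16897, a gene on the opposite strand that was 9.05 FPKM in WT against 7.85 FPKM in ESAM-null. The library kit does not mark strand, so reads of these 2 genes cannot be told apart where they overlap. A microRNA gene, Mir8113, overlaps an exon of Cd27.

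The pair of genes whose products the gate selects for were highly expressed in both libraries. Kit (chromosome 5, 75574916 to 75656722) was 94.4 FPKM in WT against 76.4 FPKM in ESAM-null, resting on about 4463 and 3933 reads. It was 1.24-fold lower in ESAM-null, with a counting interval of 1.18 to 1.29. Ly6a was 99.8 FPKM in WT against 96.7 FPKM in ESAM-null, a ratio of 0.968 with a counting interval of 0.872 to 1.07 that includes no difference. That reading depends on the scale: with FPKM totals set equal the log2 ratio of Ly6a was -0.32, outside its interval. Both genes were among the more abundant: Kit exceeded 90.8% of genes above 0 in WT and 86.3% in ESAM-null, and Ly6a 91.3% and 89.0%. Since cells were collected by the c-Kit and Sca-1 proteins in both genotypes, these levels describe cells already chosen by them.

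Cd48 (chromosome 1, 171682009 to 171705258), whose product the gate selects against, was 16.6 FPKM in WT against 22.0 FPKM in ESAM-null. These values rest on about 153 and 222 reads, and no run of 25 bases or more of its transcript occurred in another gene. Cd48 mRNA was thus present in both CD48- libraries, above 62.2% of detected genes in WT and 65.6% in ESAM-null. The ratio was 1.33, with a counting interval of 1.08 to 1.65. Ly6a exceeded Cd48 by 6.03 times in WT and 4.39 times in ESAM-null, and Kit exceeded it by 5.70 and 3.47 times.

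**Figure D1:**
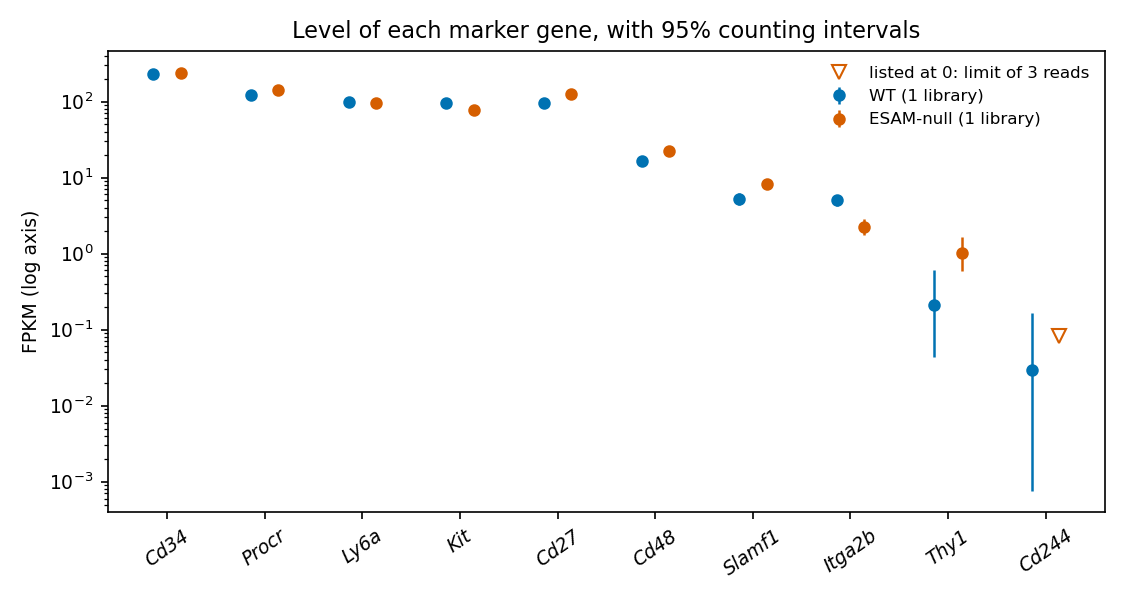
FPKM on a log axis for the 10 marker genes in the WT library (blue) and the ESAM-null library (orange), ordered by the WT level. Bars are 95% counting intervals, hidden by the point where short. The open triangle marks the 3-read limit for Cd244, listed at 0 in ESAM-null. The markers spread from 230.0 FPKM of Cd34 to 0.0299 FPKM of Cd244 in WT.

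Genes of the lineage antigens that depletion antibodies commonly target were mostly low. Since the lineage cocktail was not given in the sources used here, 15 commonly used targets were listed, of which 14 were in the tables and 8 reached 1 FPKM in at least 1 library. Cd3e and Cd3d, subunits of the T cell receptor complex, were listed at 0 in both. Itgam, the CD11b chain of myeloid cells, was 5.71 FPKM in WT against 2.70 FPKM in ESAM-null, 2.11-fold lower (1.69 to 2.64), and Cd3g had 1.30 FPKM in WT but 0 in ESAM-null. Higher in ESAM-null were 2 genes: Cd4 was 1.32 and 3.41 FPKM and Ncam1, an adhesion molecule, was 0.434 and 2.42 FPKM. The other 4 were within 2-fold. Among them, Ptprc, which encodes CD45 on all white blood cells and in one isoform the B220 antigen, was 31.0 and 40.1 FPKM. The median log2 ratio of the 7 with values above 0 in both libraries was 0.37, against 0.01 for all genes. At least 2-fold lower in ESAM-null were 12.8% of all genes that reached 1 FPKM, and 7.42% were at least 2-fold higher.

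Of the SLAM markers, Slamf1 was detected at a low level and Cd244 was nearly absent. Slamf1 (chromosome 1, 171767127 to 171801184) was 5.21 FPKM in WT against 8.25 FPKM in ESAM-null, resting on about 122 and 210 reads. It was 1.58-fold higher in ESAM-null, with a counting interval of 1.26 to 1.99 that stays under 2-fold. Cd244 (chromosome 1, 171559193 to 171609746, named Cd244a in the annotation) was 0.0299 FPKM in WT, which corresponds to 1 read, and was listed at 0 in ESAM-null. A count of 0 allows up to 0.0825 FPKM there (3 reads), and no fold is given. Cd48 exceeded Slamf1 by 3.18 times in WT and 2.67 times in ESAM-null, although the gate was set against CD48 protein and Slamf1 was not part of it.

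The SLAM genes are neighbors on chromosome 1, with Cd244 at one end of the cluster, Slamf6 at the other, and Slamf9 and Slamf8 farther off, 708 and 815 kb from Slamf1. Slamf1 and Cd48 had higher values in ESAM-null, whereas the family members otherwise detected (Cd84, Ly9, Slamf6, Slamf9 and Cd244) had lower ones, not all beyond their counting intervals. Cd84, on one side of Slamf1, was 11.9 FPKM in WT against 11.1 FPKM in ESAM-null, a ratio whose counting interval of 0.810 to 1.09 includes no difference. Ly9, which lies beyond Slamf7 toward Cd244, was 10.4 and 7.13 FPKM, 1.46-fold lower (1.18 to 1.79). Slamf6 was 2.66 FPKM in WT, on about 57 reads against 23 in ESAM-null, 2.65-fold lower (1.64 to 4.59), and was the 1 gene past 2-fold among the 5 of 9 family members that reached 1 FPKM. Of all genes that reached 1 FPKM, 12.8% were at least 2-fold lower. Slamf7 and Slamf8 were listed at 0 in both libraries, and Slamf9 was 0.452 FPKM in WT and 0 in ESAM-null. Of the SLAM adaptors, Sh2d1a, Sh2d1b1 and Sh2d1b2, which carry signals in lymphocytes, were also listed at 0 in both, as was Cd2, a ligand of CD48. The phosphatases and kinases that act further on were well expressed and within 2-fold: Ptpn6 was 183 and 185 FPKM, Fyn was 46.4 and 32.1 FPKM, and Inpp5d was 37.6 and 33.0 FPKM. As a median log2 ratio, -0.09 was found for the 5 receptors and -0.09 for the 4 measured adaptors and effectors.

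**Figure D2:**
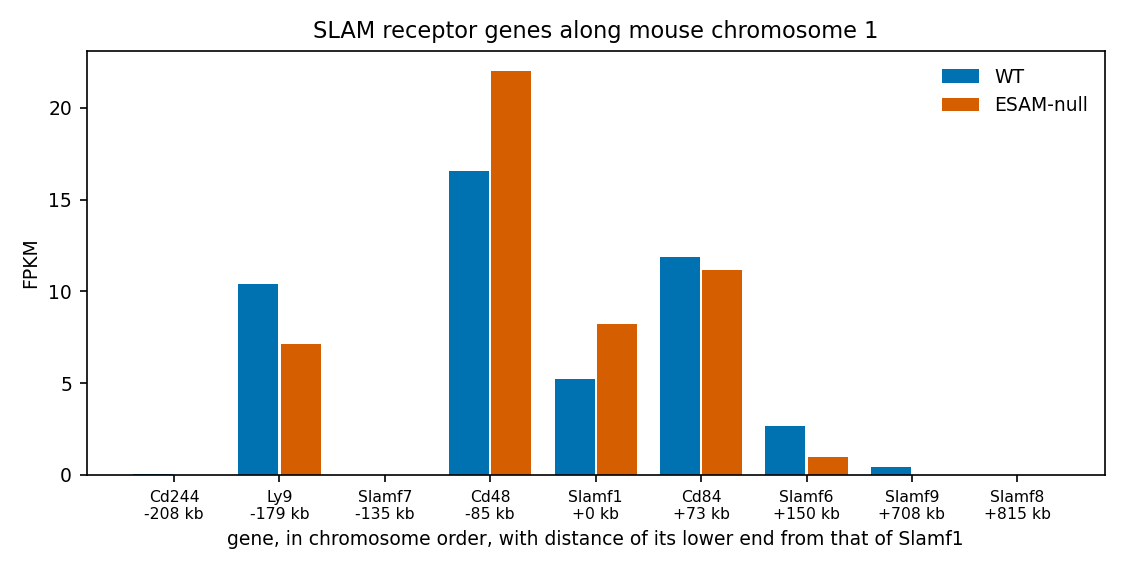
FPKM of the 9 SLAM receptor genes in WT (blue) and ESAM-null (orange), in their order along chromosome 1, with the distance of each gene's lower end from that of Slamf1 in kb. Cd48 is the highest in both libraries, at 16.6 and 22.0 FPKM, and Slamf7 and Slamf8 are at 0.

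The highest markers were Cd34 and Procr. Cd34 (chromosome 1, 194938819 to 194961279), which encodes a sialomucin of stem and endothelial cells, was 230.0 FPKM in WT against 240.3 FPKM in ESAM-null, a ratio of 1.04 with a counting interval of 1.01 to 1.08 that likewise depends on the scale: with FPKM totals set equal its log2 ratio was -0.22. Procr (chromosome 2, 155751117 to 155755471), the protein C receptor, was 120.1 and 143 FPKM, a ratio of 1.19 (1.11 to 1.27), which falls below 1 once FPKM totals are set equal. Cd34 exceeded 96.4% of detected genes in WT and 95.3% in ESAM-null, and Procr 92.7% and 92.2%. Cd27 (chromosome 6, 125232622 to 125237010), a receptor of the tumor necrosis factor receptor family found on LSK cells with lymphoid and short-term potential, was 94.3 FPKM in WT against 125 FPKM in ESAM-null, a ratio of 1.32 (1.23 to 1.43). The annotation lists 3 Cd27 transcripts of 588 to 1559 bases, and with the shortest the same FPKM corresponds to 343 and 494 reads in place of 1202 and 1732. Relative to Kit in the same library, Cd27 was 0.999 in WT and 1.63 in ESAM-null, and Procr was 1.27 and 1.87.

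Ligands and partners of the markers were listed as well. CD70, the ligand of CD27, was listed at 0 in both libraries, whereas Siva1, which binds the CD27 tail, was 304 and 419 FPKM. Traf2, a signaling adaptor of this receptor family, was 18.5 and 19.2 FPKM. Thbd, the thrombomodulin that works beside EPCR in protein C activation, was 4.05 FPKM in WT against 1.47 FPKM in ESAM-null, 2.75-fold lower (1.99 to 3.86). F2r, the thrombin receptor that EPCR-bound protein C can cleave, was 16.7 and 17.2 FPKM. Crkl, an adaptor that binds the CD34 tail, was 16.1 and 6.69 FPKM, 2.40-fold lower (2.11 to 2.74). Of 15 ligands and partners listed, 10 reached 1 FPKM, with a median log2 ratio of 0.05. Of these 10, 2 were at least 2-fold lower, none was at least 2-fold higher and 8 were within 2-fold. The shares of all genes that reached 1 FPKM were 12.8% lower and 7.42% higher.

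Thy1 and Itga2b, both low, were the 2 markers past 2-fold among the 9 that reached 1 FPKM. Thy1 (chromosome 9, 44043384 to 44048579), a GPI-anchored protein found at a low level on mouse HSCs, was 0.208 FPKM in WT against 1.02 FPKM in ESAM-null. These values correspond to 3 and 16 reads, and the ratio of 4.90 has a counting interval of 1.40 to 26.2. Thy1 lies 6.51 Mb from Esam on the same chromosome. Itga2b (chromosome 11, 102453297 to 102470122, minus strand), the CD41 chain of the platelet fibrinogen receptor and a marker of early embryonic HSCs, was 5.05 FPKM in WT against 2.23 FPKM in ESAM-null, resting on about 153 and 74 reads. It was 2.26-fold lower, and its counting interval of 1.69 to 3.01 includes values under 2-fold.

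Other genes of the megakaryocyte lineage, in which Itga2b is most highly expressed, had values in both directions. Itgb3, which encodes the CD61 chain that pairs with CD41, was 0.495 FPKM in WT against 0.140 FPKM in ESAM-null, below the 1 FPKM needed to be counted. Of 6 megakaryocyte markers, 5 reached 1 FPKM, with 1 at least 2-fold lower, 1 higher and 3 within. The shares of all genes were 12.8% lower and 7.42% higher. Gp5 was 2.89 and 0.541 FPKM and Ppbp, a platelet chemokine, was 1.46 and 3.69 FPKM. Gp9 was 57.8 and 65.9 FPKM, and Pf4, platelet factor 4, was 19.5 and 22.8 FPKM. Gp1bb, the sixth, was 0.296 FPKM in WT and 0 in ESAM-null. The summed level of the 6 was 87.1 FPKM in WT against 99.7 FPKM in ESAM-null. Their part in the Itga2b difference was not tested.

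To be counted, a gene had to reach 1 FPKM in either library. Of the 9 markers that did, Itga2b was the 1 gene lower in ESAM-null by 2-fold or more and Thy1 the 1 gene higher. Among all 12066 genes that passed the same filter, 12.8% were lower by 2-fold or more, 7.42% were higher and 20.2% were past 2-fold in either direction, so that the markers' 22.2% was near the background. These shares depend on level. Of genes with a mean of 3 to under 10 FPKM, the range that holds Itga2b, 16.5% were at least 2-fold lower. Of those under a mean of 1 FPKM, where Thy1 lies, 31.6% were at least 2-fold higher, but a gene of that range passes the filter only if its values differ, which raises the share. The 5 markers with a mean from 30 FPKM up and Cd48 were all within 2-fold. Of all genes with a mean of 30 to under 100 FPKM 2.17% were past 2-fold in either direction, and of those from 100 FPKM up 3.3%.

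Of the 9 markers, 6 had a ratio above 1 and 3 below, while 50.6% of all genes were above 1. The median log2 ratio of the markers was 0.25, against 0.01 for all genes and 0.09 for genes with a mean of 10 FPKM up. The direction of the markers depends on the scale. The deposited FPKM summed to 751784 in WT and 911736 in ESAM-null, and setting these totals equal moves every log2 ratio by -0.28. On that scale the median of the markers was -0.027 against -0.27 for all genes. Every gene shifts alike, so the place of the markers relative to all genes could not change. Procr turned from 0.25 to -0.027 and Cd34 from 0.06 to -0.22. Ly6a moved from -0.05 to -0.32 and Cd27 from 0.40 to 0.13. Each of these values lay outside the counting interval of its gene. Itga2b and Thy1 stayed past 2-fold there, and Kit had a log2 ratio of -0.58.

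**Figure D3:**
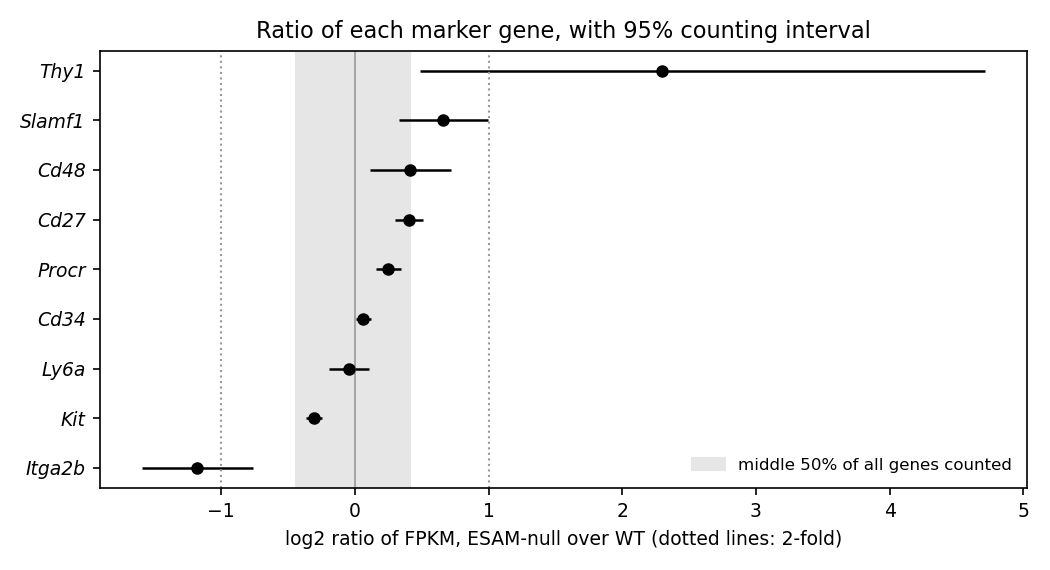
Log2 ratio of FPKM, ESAM-null over WT, for the 9 markers above 0 in both libraries. Bars give 95% counting intervals, the dotted lines 2-fold, and the grey band spans the quartiles of all genes that passed the filter, from -0.44 to 0.41. Itga2b (-1.18), Slamf1 (0.66) and Thy1 (2.29) lie outside the band.

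**Figure D4:**
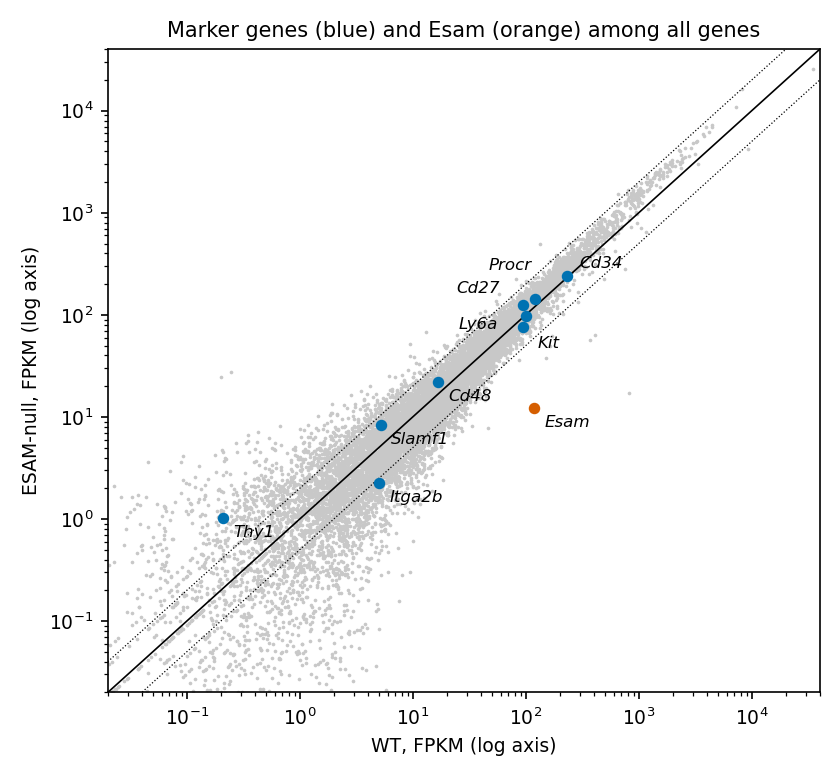
FPKM of all genes above 0 in both libraries (grey), WT on the horizontal and ESAM-null on the vertical log axis, with 9 markers in blue and Esam in orange. The solid line marks equal values and the dotted lines 2-fold. Itga2b and Thy1 lie outside the dotted lines, in a part of the plot where many grey points do, and Esam lies far below at 118 and 12.1 FPKM.

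The order of the markers by level was nearly the same in both libraries. In WT it ran Cd34, Procr, Ly6a, Kit, Cd27, Cd48, Slamf1, Itga2b, Thy1 and Cd244. Counting intervals overlapped between Ly6a and Kit, between Kit and Cd27, between Slamf1 and Itga2b, and between Thy1 and Cd244, so these neighbors cannot be ordered at this depth. In ESAM-null Cd27 stood above Ly6a and Kit, and no neighboring intervals overlapped. Slamf1 exceeded Itga2b by 1.03 times in WT and 3.69 times in ESAM-null.

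Signaling genes downstream of c-Kit were for the most part within 2-fold. Kitl, the ligand, was listed at 0 in WT and was 0.112 FPKM in ESAM-null. Of 30 genes listed, Kit included, 29 reached 1 FPKM, with a median log2 ratio of -0.15. Of these 29, 2 were at least 2-fold lower, 1 was higher and 26 were within, beside 12.8% lower and 7.42% higher of all genes. Socs1, an inhibitor of cytokine signaling that also binds c-Kit, was 15.8 FPKM in WT against 4.82 FPKM in ESAM-null, 3.28-fold lower (2.70 to 4.03). Sos2, an exchange factor for Ras, was 2.45 and 0.144 FPKM, 17.0-fold lower (8.30 to 40.0). The gene in the opposite direction was Gab2, a docking adaptor, at 2.80 and 6.30 FPKM, a ratio of 2.25 (1.86 to 2.72). The most abundant members were within 2-fold. Ptpn6, a phosphatase that dampens c-Kit signals, had a ratio of 1.01 (0.964 to 1.06). Akt1 was 175 and 134 FPKM, a ratio of 0.770 (0.736 to 0.806). Grb2 was 88.8 and 98.9 FPKM, a ratio of 1.11 (1.05 to 1.18).

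Sca-1, CD48 and Thy-1 are held by GPI anchors, so the genes that build and attach the anchor were listed as well. Of 25 such genes, 24 reached 1 FPKM, with a median log2 ratio of 0.07. Of these 24, 2 were at least 2-fold lower, 2 higher and 20 within, beside 12.8% lower and 7.42% higher of all genes. Piga, which acts in the first step, was 2.69 and 7.05 FPKM, a ratio of 2.62 (2.03 to 3.37), and Pigh, a subunit of the same complex, was 11.3 and 27.8 FPKM, a ratio of 2.46 (2.11 to 2.89). Pigc, which also belongs to that complex, was 2.03-fold lower (1.72 to 2.41), at 6.90 FPKM in ESAM-null. Pgap3, which remodels the anchor, had 2.44 FPKM in WT but 0 in ESAM-null. The most abundant were Dpm3 at 220.1 and 298 FPKM, Pigp at 138 and 131 FPKM and Pigx at 125 and 158 FPKM, all within 2-fold.

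In the Ly6 family, Ly6e was the most abundant member, at 239 FPKM in WT against 303 FPKM in ESAM-null, and with Ly6a it made up most of the family's level. Plaur, the urokinase receptor, was 19.6 and 25.3 FPKM. Of 14 genes listed, 13 were in the tables and 8 reached 1 FPKM, with 1 lower and 2 higher by 2-fold or more and 5 within. Over all genes, 12.8% were lower and 7.42% higher. Ly6d, known from early B lineage cells, had 2.85 FPKM in WT but was listed at 0 in ESAM-null. Ly6c1 had a ratio of 2.86 (1.31 to 6.88, on about 9 and 28 reads) and Ly6h of 3.37 (1.18 to 11.4, on about 5 and 18 reads). Since Ly6c1 shares sequence with Ly6a and other family members, its value is uncertain. The median log2 ratio of the 7 measured in both was 0.34.

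Among 25 other surface markers of stem and multipotent cells, 24 reached 1 FPKM. In ESAM-null 3 were at least 2-fold lower, 1 was higher and 20 were within, with a median log2 ratio of 0.04. Over all genes, 12.8% were lower and 7.42% higher. On the scale of equal totals 7 of these markers were lower and 1 was higher, where the shares of all genes became 18.3% lower and 5.45% higher. The 3 lower genes were Esam itself, Il6st, the gp130 receptor chain, at 4.06 and 1.08 FPKM, and Prom1, which encodes CD133, at 1.05 FPKM in WT but 0 in ESAM-null. Cdh5, the endothelial cadherin, was 0.954 and 3.33 FPKM, a ratio of 3.49 (2.37 to 5.25). Among the most abundant were Cd47, a signal against phagocytosis, at 278 and 299 FPKM, and Cd9 at 67.5 and 78.6 FPKM.

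**Figure D5:**
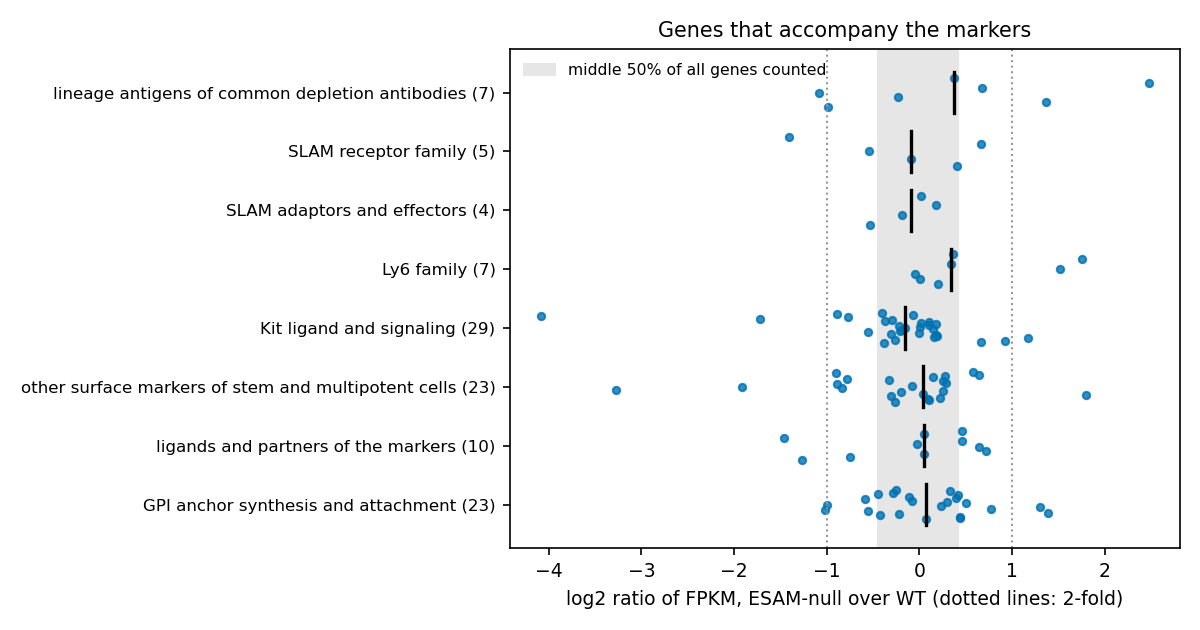
Log2 ratio of FPKM, ESAM-null over WT, for the genes of 8 lists that accompany the markers. Each point is a gene that reached 1 FPKM in either library and was above 0 in both, with their number in parentheses. Black bars are medians, dotted lines mark 2-fold and the grey band spans the quartiles of all genes that passed the filter. The medians run from -0.15 for the Kit list to 0.37 for the lineage antigens.

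Markers of other cell types were measured in the same libraries to describe what the gate held. Values of 0 were more frequent in ESAM-null over all genes too (13039 genes above 0, against 14305 in WT). Of the 6 T and NK cell markers, 4 were at 0 in both libraries (Cd3e, Cd3d, Ncr1 and Gzma), with summed levels of 2.66 FPKM in WT against 2.18 FPKM in ESAM-null and the highest values for Klrb1c (1.36 and 2.18 FPKM) and Cd3g. Mast cell markers summed to 1.11 and 4.17 FPKM, with Mcpt8, Fcer1a and Ms4a2 at 0 in both; Cpa3, which progenitors also express, was 1.11 and 3.83 FPKM and Cma1 was at 0 and 0.225 FPKM. Macrophage markers summed to 16.0 and 10.6 FPKM, led by C1qc (3.38 and 5.07 FPKM) and C1qb (3.85 and 1.94 FPKM). Csf1r was 2.17 and 3.59 FPKM, a ratio of 1.65 (1.23 to 2.21). Adgre1, Cd5l, C1qa, Vcam1 and Marco were above 0 in WT and at 0 in ESAM-null. Hepatocyte markers summed to 42.0 and 37.1 FPKM, most of it Trf (32.5 and 22.8 FPKM), which other cells express too. Apoa1 was 1.09 and 7.52 FPKM. Afp was 4.35 and 6.69 FPKM, a ratio of 1.54 (1.15 to 2.07). Alb, Apoa2, Ttr and Serpina1a were above 0 in WT and at 0 in ESAM-null, Alb from 1.04 FPKM.

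Erythroid markers summed to 1326 FPKM in WT against 905 FPKM in ESAM-null, mainly from Hbb-b2 (855 and 729.8 FPKM) and Hba-a2 (373 and 57.1 FPKM). Hbb-b1 was higher in ESAM-null, at 78.8 and 114 FPKM. By real-time qPCR of LSK CD48- cells, the paper reports significantly lower Hbb-b1 in ESAM-null. Of the 7 that reached 1 FPKM, 4 were at least 2-fold lower, against 12.8% of all genes. They were Hba-a2, Alas2, Slc4a1 and Epb4.2, the last at 0 in ESAM-null. Alas2 was 8.08 FPKM in WT against 0.282 FPKM in ESAM-null, 28.6-fold lower (12.7 to 94.7). Slc4a1 was 6.08 and 0.471 FPKM, 12.9-fold lower (8.23 to 21.1). The globin genes are near-identical pairs, so their single values are uncertain. B cell markers summed to 85.7 and 104 FPKM, of which Cd79b was 69.6 and 80.5 FPKM and Igll1 was 7.37 and 12.4 FPKM, whereas Ms4a1 was at 0 in both. Neutrophil markers summed to 254 and 259 FPKM, from Prtn3 (186 and 193 FPKM) and Mpo (63.9 and 62.8 FPKM), with Elane and Ctsg at 0 in both. Endothelial markers summed to 904 and 945 FPKM, nearly all from Egfl7 (826 and 852 FPKM) and Emcn (43.2 FPKM in WT and within 2-fold), which HSCs also express. Lower in ESAM-null were Pecam1 (20.8 and 12.1 FPKM), Kdr (1.33 and 0.780 FPKM) and Lyve1 (0.884 FPKM in WT and 0 in ESAM-null). Higher were Tek (10.9 and 16.3 FPKM), Cdh5 (0.954 and 3.33 FPKM) and Stab2 (0.0401 and 0.492 FPKM). Lyve1 and Stab2 did not reach 1 FPKM and were not counted. These values move in both directions between the libraries, and their part in the marker differences was not tested.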

How the data were processed

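The authors amplified cDNA with a low-input kit, sheared it to between 200 and 500 bp, sequenced single-end reads of 75 bp, and deposited FPKM per gene symbol for 1 WT and 1 ESAM-null library. Per the submitters' processing notes, the build was mm10 and the tools included Cuffnorm 2.2.1, SAMtools 0.1.19, TopHat2 2.0.13 and Bowtie2 2.2.3. Not given in the sources used here were the annotation, the library normalization setting and how multi-mapped reads were treated, which bears most on Ly6 genes.

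ESAM-null FPKM were divided by WT FPKM for each gene, and those reaching 1 FPKM in either library entered the 2-fold counts. Approximate reads were obtained from FPKM and the longest RefSeq-linked GENCODE M21 transcript (GRCm38, the same build as mm10), which 96.8% of genes had, with an assumed fragment length of 200 ± 80 bp (SD). The estimate fell within 0.05 of a whole number for 69.4% of 232 low genes in WT and 69.7% of 142 in ESAM-null. Ratio intervals are exact (Clopper-Pearson) at 95%, those of levels are exact Poisson intervals, and neither covers more than counting error, since PCR copies of 1 molecule are counted apart. The steps were tested on simulated data.

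The 10 markers and the 8 companion and 9 cell type lists were chosen with earlier results of these data known. From each companion list were named the genes past 2-fold (at most 5) and the 3 of highest mean FPKM, and from each cell type list the 2 of highest value and those at 0. Of the genes this rule names, 2 are not reported here. Other listed genes, among them Kitl, Itgb3, Gp5, Ppbp, Stab2, Alas2, Slc4a1, Afp and Csf1r, were named after their values were seen. Alternatives were 3 other filters, thresholds of 1.5 and 3-fold, pseudocounts of 0.1 and 1 FPKM, 4 scalings, leaving out each marker, and intervals without a fragment length correction. Tools were Biopython 1.88, matplotlib 3.10.9, scipy 1.17.1, pandas 2.3.3, numpy 2.4.6 and Python 3.11.15.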

Additional observations from a re-analysis of the deposited data

How the results depend on the processing

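With 1 library for each genotype, no replicate could be left out. No paired analysis was possible because each genotype has 1 library. The number of markers at least 2-fold lower was 1, and became 2 with any value above 0, since Cd244 with its single WT read then counts, and 0 at a 3-fold threshold, where 22.2% and 7.27% of all genes were lower. The number at least 2-fold higher was 1, and became 0 with 5 FPKM in 1 library or 1 FPKM in both, which remove Thy1 (3.75% and 4.09% of all genes), and 2 at a 1.5-fold threshold, which adds Slamf1 (17.4% of all genes). The median log2 ratio of the markers was 0.25, reversed to -0.027 after rescaling to equal totals, where that of all genes was -0.27, and lay between 0.16 and 0.33 under the other 17 settings, leaving out each marker included. The median ratio, upper quartile and trimmed mean scalings moved every log2 ratio by -0.02, 0.01 and -0.01. Without a correction for fragment length no marker's interval gained or lost the value 1.

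For the companion lists, counts are given as lower and higher. Shares of all genes, lower and higher, were 22.2% and 9.13% with any value above 0, 6.99% and 3.75% with 5 FPKM in 1 library, 7.13% and 4.09% with 1 FPKM in both, and 18.3% and 5.45% after rescaling. With any value above 0 there were 4 lineage antigens, 3 SLAM receptors and 3 Ly6 genes lower, and 2 Kit signaling genes and 1 partner higher. With 5 FPKM in 1 library, 1 lineage antigen was lower and 0 higher, SLAM receptors had 0 lower, Ly6 genes 0 and 0, other surface markers 1 and 0, and Kit signaling genes, partners and GPI anchor genes 1 lower each. With 1 FPKM in both, lineage antigens were 1 and 1, Ly6 genes 0 and 1, other surface markers had 0 higher, and Kit signaling and GPI anchor genes 1 lower each. After rescaling to equal totals, Kit signaling genes were 4 and 0 and other surface markers had 7 lower. Depth limits Cd244 and Thy1 most.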
